A study of Mus musculus with 15 samples.

Results

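The cholesterol synthesis genes were followed in stretched podocytes: 28 mouse genes, taken by symbol as members of the pathway, out of 55416 genes in the count table. They comprise 7 genes of the precursor steps from acetyl-CoA to farnesyl diphosphate, 11 of the sterol steps from squalene to cholesterol, 5 of the control system around the transcription factors SREBP1 and SREBP2, and 5 of sterol transport and export. All 28 were found by symbol. The cells were SVI, a conditionally immortalised mouse podocyte line, differentiated and seeded on flexible silicone membranes that were deflected up and down by pressure, in a study that asked how mechanical load, used to mimic raised glomerular pressure, alters splicing and expression. No treatment other than stretch was labelled, so all 4 groups shared the line and the membranes. Experiment 1 held 6 low-stretch and 3 unstretched samples, and experiment 2 held 3 high-stretch and 3 unstretched samples. The sample labels give the membrane deflection as 5 to 6 mm for low stretch and 7 to 8 mm for high stretch, and the study's design text gives the upper value of each range. Amplitude and experiment cannot be told apart, since each amplitude was used in 1 experiment. The labels do not say that replicates were separate cultures, so p-values measure the spread between these samples, which may be technical. The model is 1 cell line, and in such bulk RNA fewer expressing cells and less RNA per cell cannot be told apart.

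Cells make cholesterol from acetyl-CoA through mevalonate, isoprenoid diphosphates, squalene and lanosterol. When sterols in the endoplasmic reticulum run low, SCAP carries the SREBP proteins to the Golgi, where they are cut and released to switch on most genes of the pathway; when sterols are plentiful, the INSIG proteins hold SCAP back. Podocytes are the epithelial cells of the glomerular filter, and cholesterol in their membranes is known for its place in the slit diaphragm, where the export pump ABCA1 has been studied in kidney disease.

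Sequencing depth ranged from 172.2 to 396.7 megacounts (Mcounts) per library. The members together took 0.146% to 0.224% of the counts of a library. The podocyte markers Nphs1, Tcf21 and Ptpro were under 1 CPM (CPM being counts scaled to a common library total) in every library, whereas Synpo, Podxl, Actn4 and Kirrel ranged from 94.7 to 1918 CPM. All 5 endothelial markers, 4 of 5 tubular markers and 3 of 5 macrophage markers were under 1 CPM in every library. Replicate 3 of the unstretched samples of experiment 2 stood apart from the other 2 of its group, at 31.8 on the first principal component of all genes against 122 and 164. Mitochondrial genes took 2.60% of its counts and between 1.15% and 1.56% in the other 2.

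Promoter windows of 300 bases were available from RefSeq (build GRCm38.p6) for 22 of the 28 genes, in 30 windows. The submitters' processing notes name build mm39, so these windows show sequence only and no read was placed by them. Both strands were searched for TCACNCCAC, the core letters of a sterol regulatory element bound by SREBP, for CCAAT, the letters bound by NF-Y, and for GGGCGG, the GC box bound by Sp1; none of these motifs contains another. The sterol element letters were found in 1 of 30 windows, that of Hmgcs1, against 1.24% of all 32851 windows. CCAAT was found in 66.7% of the members' windows against 37.4% of all windows, and in 14 of the 15 matched enzyme genes. GC boxes were found in 83.3% of the members' windows and in 35.7% of all. Absence of these letters says only that they were not in these windows. The following 4 stretches hold the 200 bases before the start site, 5′ to 3′ on the gene's strand, with matches on either strand in capitals. Hmgcs1 is shown because it alone held the sterol element letters, and Msmo1, Cyp51 and Insig1, chosen after their values were seen, because they had the 3 highest log2 ratios of the members in high-stretch replicate 1 (1.44, 1.02 and 0.99). Hmgcs1 is at chr13:119690151-119690350 (plus strand), Msmo1 at chr8:64733579-64733778 (minus), Cyp51 at chr5:4104698-4104897 (minus) and Insig1 at chr5:28071212-28071411 (plus).
Hmgcs1: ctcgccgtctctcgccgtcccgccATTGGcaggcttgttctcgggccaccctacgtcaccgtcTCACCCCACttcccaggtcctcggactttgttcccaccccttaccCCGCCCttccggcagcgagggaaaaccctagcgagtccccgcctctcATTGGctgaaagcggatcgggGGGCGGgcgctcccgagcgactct
Msmo1: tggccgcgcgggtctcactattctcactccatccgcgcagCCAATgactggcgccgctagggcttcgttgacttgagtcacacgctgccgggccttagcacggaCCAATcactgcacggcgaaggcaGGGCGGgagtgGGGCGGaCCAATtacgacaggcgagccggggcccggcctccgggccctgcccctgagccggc
Cyp51: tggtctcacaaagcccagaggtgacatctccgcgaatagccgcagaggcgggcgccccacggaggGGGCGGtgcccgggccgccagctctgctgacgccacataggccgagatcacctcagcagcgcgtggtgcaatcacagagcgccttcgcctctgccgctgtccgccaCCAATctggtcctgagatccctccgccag
Insig1: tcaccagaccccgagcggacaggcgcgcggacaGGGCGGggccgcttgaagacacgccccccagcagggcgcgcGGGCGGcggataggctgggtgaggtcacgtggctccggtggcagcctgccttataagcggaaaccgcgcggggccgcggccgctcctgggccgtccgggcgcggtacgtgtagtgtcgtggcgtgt

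In the Hmgcs1 promoter the capitals mark the sterol element letters once, CCAAT on the opposite strand (ATTGG) at 2 places, and a GC box on each strand. The Msmo1 stretch holds CCAAT 3 times and the GC box 2 times, the Cyp51 stretch holds each once, and the Insig1 stretch holds the GC box 2 times. The single CCAAT of the Insig1 window lies outside the bases printed.

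Levels between genes were compared per length, as TPM (transcript abundance scaled for length and library total) summed over the transcripts of each gene. In unstretched cells of experiment 1 the highest level was that of Npc2, which carries cholesterol within lysosomes, at 202 ± 15.9 TPM (SD, n = 3). Fdps, which makes farnesyl diphosphate, followed at 86.2 ± 18.8 TPM, then Msmo1 (sterol C4 demethylation) at 76.0 ± 10.4 TPM and Hmgcs1 (HMG-CoA synthase) at 75.2 ± 8.05 TPM. The lowest levels were those of Hsd17b7 at 13.0 ± 1.86 TPM and the export pump Abca1 at 2.32 ± 0.544 TPM. The ranges of neighbours in this order overlapped for 20 of 27 neighbouring pairs, so most of the middle of the order was not resolved. The second export pump, Abcg1, had at most 1 count in any library and between 0 and 3 counts in total per group, under a limit of 3 counts per library (0.00700 to 0.0216 CPM), and was not tested.

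**Figure D1:**
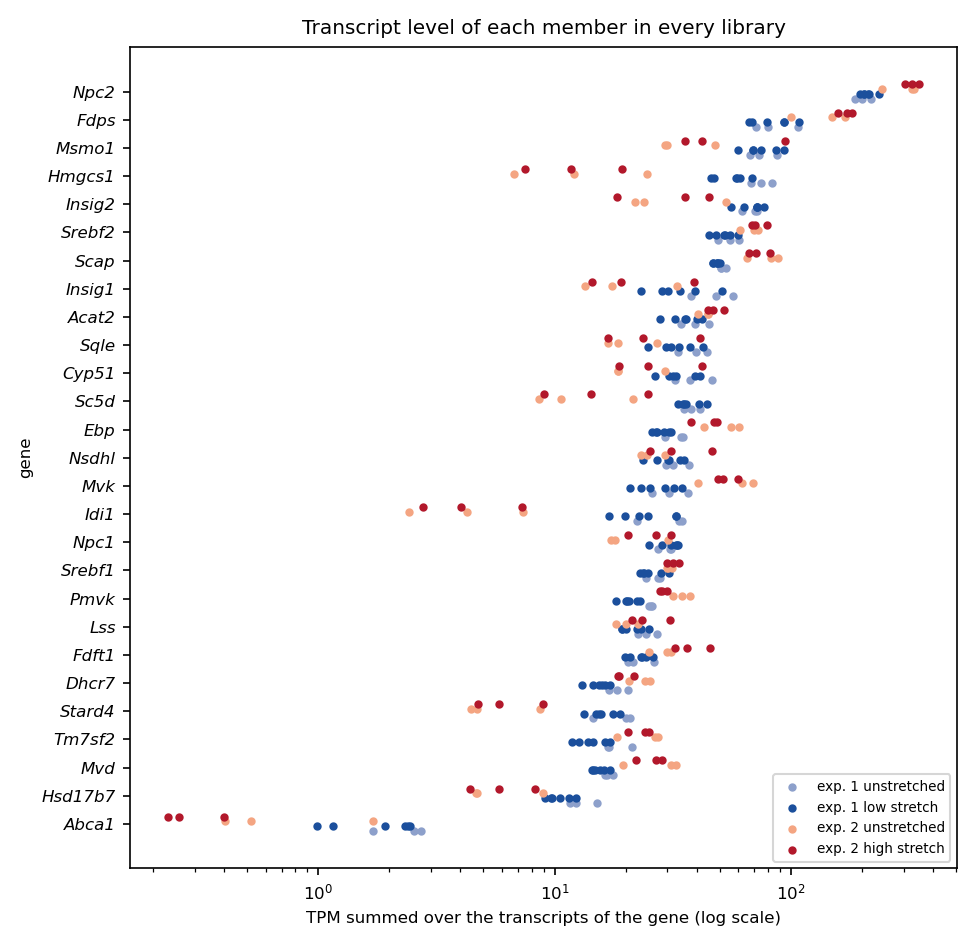
Level of each of 27 members in every library, in TPM on a log axis, with 1 point per library coloured by group; Abcg1, near 0 in every library, is left out. Npc2 was highest and Abca1 lowest in every group, and the experiment 2 libraries lay below those of experiment 1 for Hmgcs1, Idi1 and Stard4.

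Fdps has an uncertain count. Its TPM level was second in rank, yet its counts gave 5.04 ± 1.02 CPM in the unstretched samples of experiment 1. Over all 15 libraries its mean level was 14.6 TPM per CPM, where the next highest ratio among the members was 1.44 for Pmvk. In the GENCODE annotation Fdps shares 7512 bases with the predicted gene Gm43738 on the same strand, and the part of this overlap in the count was not tested. Its stretch values below come from this count.

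Under low stretch none of the members passed the test. Of 27 members tested with edgeR's quasi-likelihood test, 0 had an adjusted p under 0.05, where 5.45% of all 21672 genes tested did. An unadjusted p under 0.05 was found for 3 members (Hmgcs1, Npc1 and Npc2) and for 5104 of the 21672 genes. DESeq2 also called 0 members, against 11.7% of all genes. The median log2 fold change of the 27 was -0.05 against 0.01 for all genes. The members' changes were small and fairly well bounded: the 95% interval of the fold change lay within 1.5-fold either way for 24 of 27 members, all but Idi1, Insig1 and Abca1, and within 2-fold for all 27. Low-stretch and unstretched CPM did not overlap for 1 of 27 members, Pmvk, where 15.9% of all genes tested did not overlap.

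Among the precursor steps, Hmgcs1, which commits acetyl-CoA units to the mevalonate route, was at 79.3, 89.7 and 101.6 CPM in the unstretched samples. In the low-stretch samples it was at 62.0, 73.4, 64.3, 83.6, 77.4 and 90.2 CPM in replicates 1 to 6. The lowest 4 low-stretch libraries lay below every unstretched one and the groups overlapped. The log2 fold change was -0.29 (SE 0.12, adjusted p = 0.184, edgeR). Position codes in the sample descriptions, which the labels do not explain, form runs of neighbours, each with 1 unstretched library, and within its run Hmgcs1 was lower in 6 of 6 low-stretch libraries, by log2 ratios from -0.48 to -0.10. With the position run as a block its change was -0.29 with adjusted p = 0.0256. That fit called 4 of 27 members, 3 lower and 1 higher, where it called 28.2% of all genes, 14.5% lower and 13.7% higher, and with a GC correction as well 5 members passed against 30.4% of all genes. Each unstretched library of experiment 1 served 2 of these within-run ratios. The share of all genes with the same sign in 6 of 6 libraries was not computed. Such counts, here and below, are therefore not read as particular to the members.

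Pmvk (phosphomevalonate kinase) was 12.2 ± 0.997 CPM (SD, n = 6) under low stretch and 13.7 ± 0.227 CPM (n = 3) unstretched, a log2 fold change of -0.19 (SE 0.09, adjusted p = 0.217, edgeR). It was lower within the run in 6 of 6 libraries and passed with the run block (-0.20, adjusted p = 0.0394). The other 5 precursor genes, Acat2 (acetoacetyl-CoA thiolase, with a close paralog), Mvk, Mvd (mevalonate diphosphate decarboxylase), Idi1 and Fdps, had log2 fold changes from -0.17 to 0.00 with adjusted p of 0.680 or more. Idi1, the isopentenyl diphosphate isomerase, had the widest interval of the 7, from -0.65 to 0.31.

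None of the 11 sterol-step genes passed. Sqle (squalene epoxidase, the first oxygen-requiring step) was at 45.9, 61.4 and 55.1 CPM unstretched and at 38.6, 50.0, 48.8, 60.0, 45.5 and 62.8 CPM under low stretch. The groups overlapped fully, with a log2 fold change of -0.12 (SE 0.15, adjusted p = 0.675, edgeR). Tm7sf2 (a sterol C14 reductase) had the lowest value of this group, -0.24 (SE 0.13, adjusted p = 0.303). It was lower within the run in 6 of 6 libraries and passed with the run block (-0.25, adjusted p = 0.0263). Fdft1 (squalene synthase) had the highest, 0.15 (SE 0.12, adjusted p = 0.474), and was higher within the run in 6 of 6 libraries without passing under the block. Dhcr7, which catalyses the final reduction to cholesterol in one of its routes, was at -0.19 (adjusted p = 0.271) and lower within the run in 6 of 6. For Lss, Cyp51, Msmo1, Nsdhl, Hsd17b7 (a sterol 3-ketoreductase), Ebp (a sterol isomerase) and Sc5d the log2 fold changes ran from -0.20 to 0.11, with adjusted p of 0.395 or more.

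The control genes did not pass either. Srebf1, which encodes SREBP1, was at 45.7, 47.9 and 40.1 CPM unstretched and at 49.1, 52.3, 52.9, 53.6, 41.1 and 44.0 CPM under low stretch, a log2 fold change of 0.10 (SE 0.10, adjusted p = 0.570). Srebf2, which encodes SREBP2, was at 109.3, 137.8 and 121.7 CPM unstretched and at 109.4, 123.8, 126.8, 142.3, 122.0 and 139.8 CPM under low stretch, a log2 fold change of 0.02 (SE 0.10, adjusted p = 0.919). The groups overlapped for both genes, and Srebf1 was higher within the run in 6 of 6 libraries, by log2 ratios from 0.04 to 0.19. Insig1, a feedback gene that SREBP itself switches on, was at 44.5, 68.7 and 57.1 CPM unstretched and at 30.2, 36.2, 43.5, 54.7, 41.3 and 64.3 CPM under low stretch. This gave a log2 fold change of -0.36 (SE 0.22, adjusted p = 0.345, edgeR), the lowest of the 27, with an interval from -0.85 to 0.12. Scap was at 0.01 (SE 0.06) and Insig2 at 0.11 (SE 0.07), the latter higher within the run in 6 of 6 libraries.

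Of the transport genes, Npc1, the lysosomal membrane partner of Npc2, was higher by a small margin that passed in the fit with the run block and not without it. It was at 61.7 ± 3.42 CPM (n = 3) unstretched and 69.7 ± 3.50 CPM (n = 6) under low stretch, a log2 fold change of 0.15 (SE 0.07, adjusted p = 0.208, edgeR; with the run block 0.15, adjusted p = 0.0434). Npc2 was at 313 ± 21.2 and 364 ± 20.4 CPM, a log2 fold change of 0.19 (SE 0.08, adjusted p = 0.164), and both genes were higher within the run in 6 of 6 libraries. Abca1 was at 13.5, 8.31 and 14.8 CPM unstretched and at 5.82, 13.1, 7.37, 11.1, 11.3 and 14.1 CPM under low stretch, with overlapping groups and a log2 fold change of -0.25 (SE 0.27, adjusted p = 0.610). Stard4, a soluble sterol carrier, was at -0.10 (SE 0.14).

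**Figure D2:**
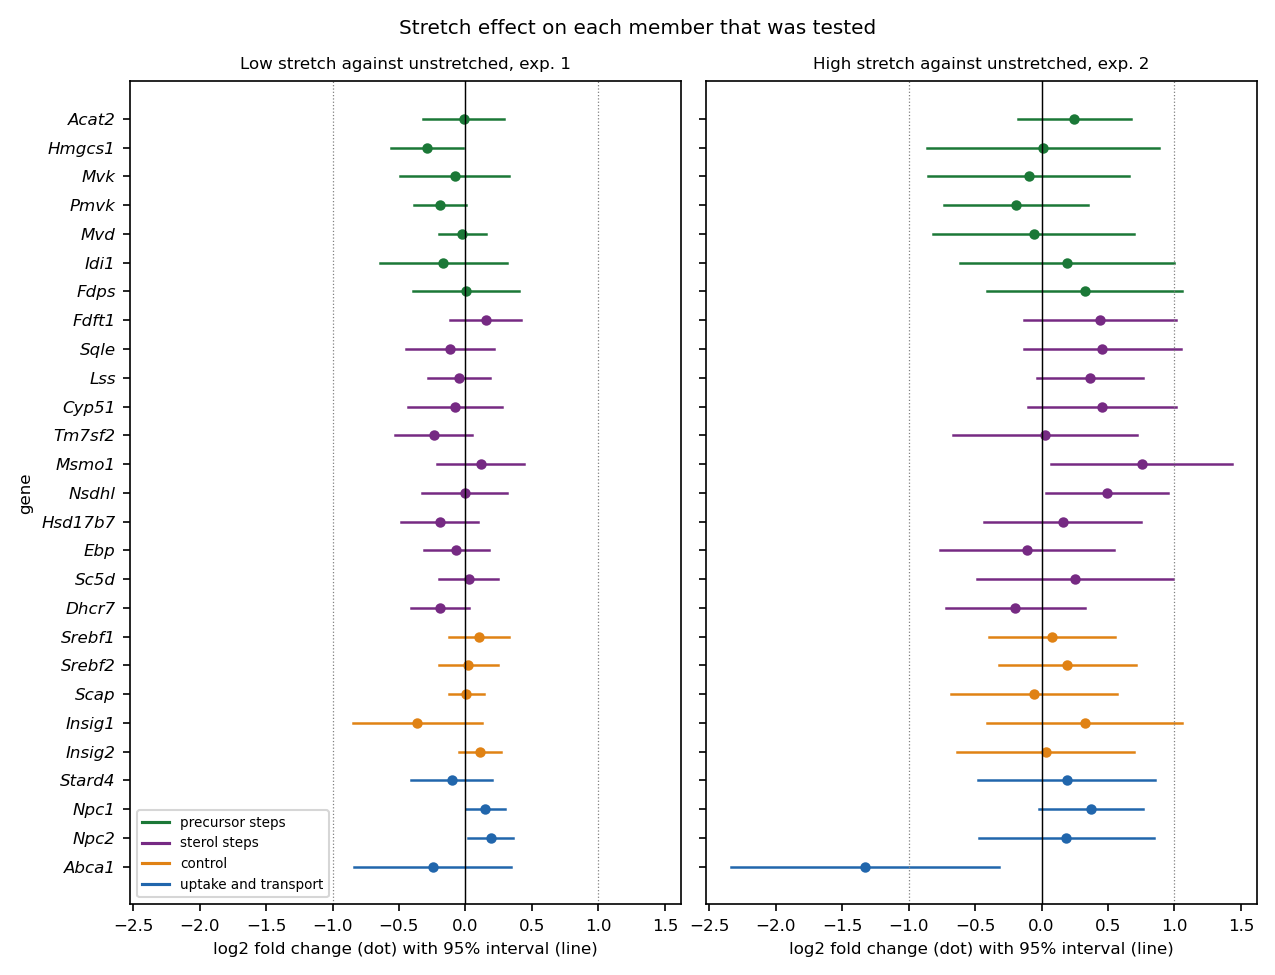
Log2 fold change of each tested member (dot) with its 95% interval (line) for low stretch in experiment 1 (left) and high stretch in experiment 2 (right), coloured by role, with dotted lines at 2-fold. The intervals are narrow on the left, where all 27 lie within 2-fold, and wide on the right, where 20 of 27 do and Abca1 lies lowest at -1.33.

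Under high stretch none of the members passed the test either, but the values were spread more widely. Of 27 members, 0 had an adjusted p under 0.05 by edgeR's quasi-likelihood test, where 3.47% of all 18524 genes tested did. An unadjusted p under 0.05 was found for 3 members (Msmo1, Nsdhl and Abca1) and for 2705 of the 18524 genes. DESeq2 called 1 member, Abca1, against 5.9% of all genes. The median log2 fold change was 0.19 for the 27 and -0.02 for all genes, with 20 values above 0 and 7 below. Only Srebf1 had an interval within 1.5-fold, and 20 of 27 members had one within 2-fold, so a change of 2-fold was not excluded by the interval for Fdps, Fdft1, Sqle, Cyp51, Msmo1, Insig1 and Abca1. The median standard error was 0.28 here and 0.12 under low stretch. High-stretch and unstretched CPM did not overlap for 4 of 27 members, Lss, Msmo1, Nsdhl and Abca1, where 20.9% of all genes did not.

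Abca1, which hands cholesterol to lipoproteins outside the cell, had the lowest value. It was at 4.53, 3.78 and 11.1 CPM in unstretched replicates 1 to 3 and at 1.98, 2.22 and 3.59 CPM in high-stretch replicates 1 to 3. Every high-stretch library lay below every unstretched one, and unstretched replicate 3 was far above the other 2. The log2 fold change was -1.33 (SE 0.44, interval -2.33 to -0.32, adjusted p = 0.185, edgeR), and DESeq2 gave -1.30 with adjusted p = 0.0236. Within the position run Abca1 was lower in 3 of 3 libraries, by log2 ratios from -1.63 to -0.77, and the fit with the run as a block gave -1.21 with adjusted p = 0.00154 while calling 8.35% of all genes, 5.03% lower. Abca1 was the 1 member called in that fit; with a GC correction as well Msmo1 also passed, 2 members against 12.5% of all genes. Without unstretched replicate 3 the change was -0.68 (adjusted p = 0.183).

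Most sterol-step genes had log2 fold changes above 0 under high stretch, and those of Msmo1, Sqle and Cyp51 were less than 0.5 times as large without high-stretch replicate 1. Msmo1, named here after its values were seen, was at 45.6, 48.4 and 52.0 CPM unstretched and at 123.9, 57.9 and 64.5 CPM in high-stretch replicates 1 to 3. All high-stretch values lay above all unstretched ones, with replicate 1 far above the rest. The log2 fold change was 0.75 (SE 0.30, interval 0.07 to 1.43, adjusted p = 0.280, edgeR) and 0.32 without high-stretch replicate 1. Sqle was at 41.4, 40.8 and 45.3 CPM unstretched and at 81.1, 40.5 and 53.8 CPM under high stretch, a log2 fold change of 0.46 (SE 0.26, adjusted p = 0.507) and 0.14 without replicate 1. The groups overlapped, since replicate 2 was no higher than the unstretched libraries. Cyp51 (lanosterol 14-demethylase) was at 59.0, 64.7 and 67.9 CPM unstretched and at 119.6, 64.5 and 79.2 CPM under high stretch, 0.46 (SE 0.24, adjusted p = 0.476) and 0.16 without replicate 1.

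Nsdhl, which acts with Msmo1 in removing the C4 methyl groups, was at 41.5, 42.5 and 36.8 CPM unstretched and 70.1, 46.6 and 53.7 CPM under high stretch, a log2 fold change of 0.49 (SE 0.20, adjusted p = 0.303, edgeR), and 0.31 without replicate 1. Lss (lanosterol synthase) was at 63.8 ± 8.14 and 82.4 ± 4.81 CPM, a change of 0.36 (SE 0.17, adjusted p = 0.399), and did not rest on replicate 1, without which it was 0.31. Fdft1 was at 67.5 ± 19.7 and 91.8 ± 9.35 CPM, a change of 0.44 (SE 0.25, adjusted p = 0.522) that was 0.24 without unstretched replicate 3. The other 5 sterol genes, Tm7sf2, Hsd17b7, Ebp, Sc5d and Dhcr7, ran from -0.20 to 0.25, with adjusted p of 0.833 or more. In this group 9 of 11 log2 fold changes were above 0, with a median of 0.36, against a median of -0.02 over all genes.

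The precursor genes were centred near 0. Hmgcs1 was at 22.06, 13.9 and 33.99 CPM unstretched and at 33.5, 15.12 and 21.96 CPM under high stretch, a log2 fold change of 0.01 (SE 0.38, adjusted p = 0.994) and fully overlapping groups. The 7 precursor genes ran from -0.19 (Pmvk) to 0.32 (Fdps), with a median of 0.01 and adjusted p of 0.681 or more. Fdps was at 0.06 without unstretched replicate 3 and at 0.63 without unstretched replicate 2. Hmgcs1, Mvk, Mvd and Idi1 could change sign when a single library was left out. Whether the precursor and sterol genes differed was not tested.

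None of the control genes passed under high stretch. Srebf1 was at 92.4, 107.1 and 73.1 CPM unstretched and at 80.3, 105.5 and 103.4 CPM under high stretch, a log2 fold change of 0.08 (SE 0.21, adjusted p = 0.944). Srebf2 was at 255.8, 271.9 and 163.1 CPM unstretched and at 257.1, 273.3 and 263.5 CPM under high stretch, a change of 0.19 (SE 0.22, adjusted p = 0.833). For both genes, unstretched replicate 3 was the lowest library. Without it the changes were -0.04 for Srebf1 and 0.01 for Srebf2. Insig1 was at 35.5, 30.0 and 48.7 CPM unstretched and at 70.6, 32.2 and 40.0 CPM under high stretch, a change of 0.32 (SE 0.32, adjusted p = 0.790) that became -0.09 without high-stretch replicate 1. Scap was at -0.06 (SE 0.27) and Insig2 at 0.03 (SE 0.29). Of the transport genes, Npc1 was at 71.2 ± 7.98 CPM unstretched and 92.6 ± 11.2 CPM under high stretch, a log2 fold change of 0.37 (SE 0.17, adjusted p = 0.375), higher within the run in 3 of 3 libraries, while Npc2 and Stard4 were each at 0.19 with adjusted p of 0.887 or more.

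**Figure D3:**
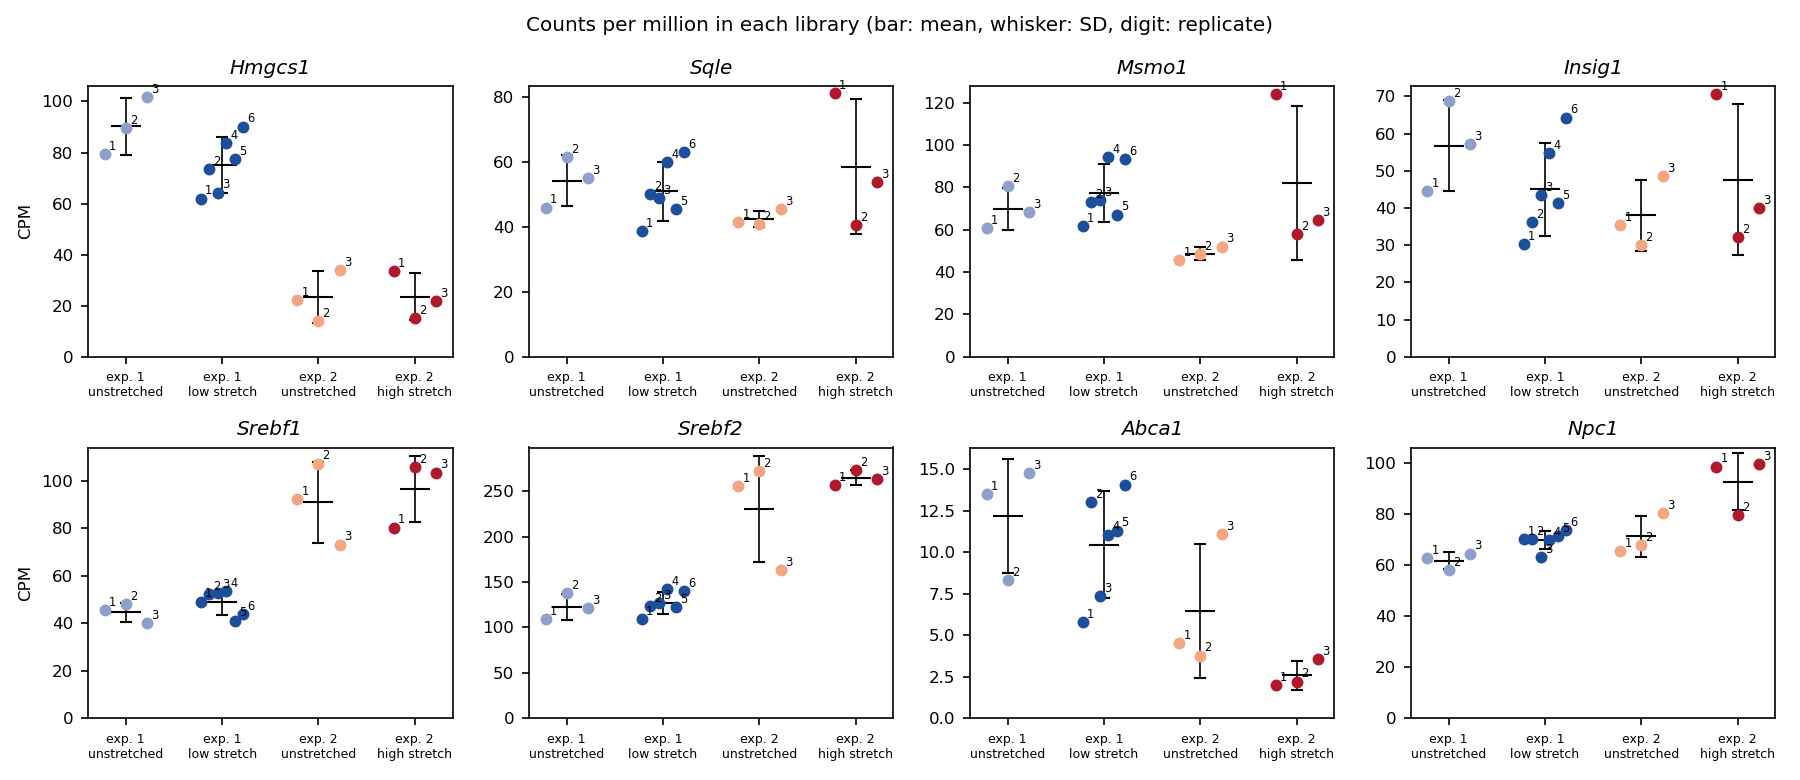
CPM of 8 members in every library, with 1 point per library labelled by replicate, the group mean as a bar and the SD as a whisker. High-stretch replicate 1 stands above the other libraries of experiment 2 for Sqle, Msmo1 and Insig1, Abca1 is lowest in the high-stretch group, and unstretched replicate 3 of experiment 2 lies apart for Srebf2 and Abca1.

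Read library by library, the high-stretch ratios differed between replicates. The 18 enzyme genes summed to 782 TPM in high-stretch replicate 1 and to 605 and 608 TPM in replicates 2 and 3, against 599, 625.1 and 563 TPM in the unstretched libraries. Against the unstretched library of the same run, 12 of 18 enzymes were higher in replicate 1 (median log2 ratio 0.42), 10 of 18 in replicate 2 (0.01) and 14 of 18 in replicate 3 (0.42). Over all genes the medians were 0.01, 0.01 and 0.06, and 50.6%, 51.1% and 53.8% of genes were higher. Some enzymes differed in sign between replicates 1 and 3. Mvk (mevalonate kinase) had a log2 ratio of -0.52 for replicate 1 and 0.77 for replicate 3, whereas Sc5d (sterol C5 desaturase) had 0.95 for replicate 1 and -0.29 for replicate 3. The low-stretch ratios differed between replicates as well. Within the run, 4, 13, 3, 9, 1 and 13 of 18 enzymes were higher in low-stretch replicates 1 to 6. Their median log2 ratios were -0.16, 0.08, -0.07, 0.01, -0.22 and 0.10. Of all genes, between 51.7% and 67.6% were higher. In each run the higher replicate number had the higher enzyme median, and the reason was not tested.

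Replicate 3 of the unstretched group of experiment 2 was the extreme library of its group for every one of the 27 members. It was the highest for 12 of them, with a median GC content of 45.2% in the longest transcript, and the lowest for 15, with a median of 51.8%. This library also stood apart on the first principal component of all genes (31.8 against 122 and 164). The share of all genes for which it was extreme was not computed, so this is not read as particular to the members. High-stretch replicate 1 was at 85.9 on the first principal component, against 154 and 104 for replicates 2 and 3, and mitochondrial genes took 1.63% of its counts against 1.14% and 1.35%. What these library differences add to the members' values was not tested beyond leaving each library out, under which no member passed.

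**Figure D4:**
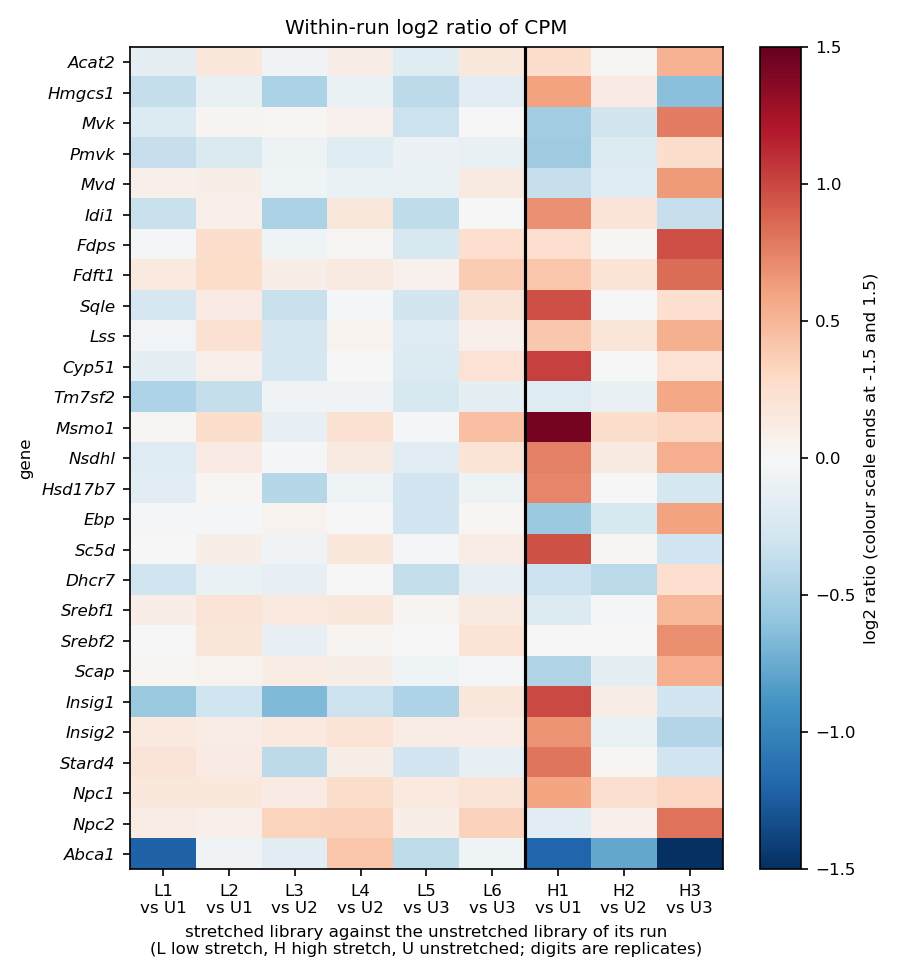
Log2 ratio of CPM of each stretched library (columns) to the unstretched library of its position run, for 27 members (rows); red is higher and blue lower under stretch. Abca1 is blue in 3 of 3 high-stretch columns, Hmgcs1 in 6 of 6 low-stretch columns, and the column of high-stretch replicate 1 is strongly red for Msmo1, Cyp51, Sqle, Sc5d and Insig1.

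The stretch effects in both experiments were compared in 1 fit over all 15 samples, by edgeR. In it, 0 of 27 had an adjusted p under 0.05, as for 0% of 22015 genes. An unadjusted p under 0.05 was found for 0 of 27 members and for 547 of the 22015 genes. DESeq2 called 0 members as well, and 0% of all genes. The most negative difference, high minus low stretch, was that of Abca1, -1.09 on the log2 scale (SE 0.52, interval -2.18 to 0.01). The most positive were those of Insig1, 0.66 (SE 0.39, interval -0.16 to 1.47), and Msmo1, 0.60 (SE 0.31, interval -0.05 to 1.26). Leaving out 1 library moved each of them by over 1.5 times: the difference was -0.41 for Abca1 without unstretched replicate 3 of experiment 2, and 0.27 for Insig1 and 0.19 for Msmo1 without high-stretch replicate 1. These intervals do not show that the amplitudes act alike.

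The unstretched groups were compared to show the levels each experiment started from. Of 27 members, 20 passed in unstretched cells of experiment 2 against those of experiment 1, 13 higher and 7 lower, where 62.5% of all 20707 genes tested passed, 29.7% higher and 32.7% lower. CPM did not overlap for 21 of 27, against 72.5% of all genes. The members that were lower included Idi1, at 9.44 ± 3.18 CPM in experiment 2 and 44.1 ± 9.64 CPM in experiment 1 (log2 fold change -2.25, SE 0.29, adjusted p = 0.00533, edgeR), and Hmgcs1, at 23.3 ± 10.1 and 90.2 ± 11.2 CPM (-1.98, SE 0.30, adjusted p = 0.00533). Stard4 (-1.34) and Sc5d (-1.21) were also lower. Those that were higher included Mvk, at 63.9 ± 26.3 CPM against 22.3 ± 4.01 CPM (1.51, SE 0.34, adjusted p = 0.00651), Mvd (1.35), Ebp (1.34), Npc2 (1.26), Scap (1.21), Srebf1 (1.02) and Srebf2 (0.90). As counted, members of 1 linear pathway lay on both sides: Mvk, Pmvk and Mvd were higher and Hmgcs1 before them and Idi1 after them were lower.

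GC content moved with this split. The 13 members called higher had a GC content from 49.6% to 59.1% and the 7 called lower from 41.9% to 48.2%. Across the 27 members the log2 fold change and GC content had Pearson's r = 0.83 and Spearman's rho = 0.87, and across all 20503 genes with a GC value 0.63 and 0.66; genes are not independent replicates and these points share the same libraries. After a GC trend was taken out of each library, a step chosen after the data were seen, 12 of 27 members passed, 10 higher and 2 lower, where 45.9% of all genes did, 24.7% higher and 21.2% lower. Hmgcs1 (-0.87, adjusted p = 0.00609) and Idi1 (-0.89, adjusted p = 0.00838) remained lower. Srebf1 went from 1.02 to 0.19, Srebf2 from 0.90 to 0.06 and Scap from 1.21 to 0.32, none of them called after the correction. Of the other members called lower, Sc5d went from -1.21 to -0.02 (adjusted p = 0.910) and Stard4 from -1.34 to -0.34 (adjusted p = 0.109). Of the mevalonate steps called higher, Mvk still passed (0.71, adjusted p = 0.0283), whereas Pmvk went from 1.02 to 0.23 (adjusted p = 0.148) and Mvd from 1.35 to 0.43 (adjusted p = 0.0819). Msmo1 turned from -0.54 to 0.35 and Hsd17b7 from -0.73 to 0.29, neither called after it. The correction also added calls. Nsdhl went from 0.23 to 0.95 (adjusted p = 0.00989, edgeR), Npc1 from 0.19 to 0.88 (adjusted p = 0.00560) and Lss from 0.41 to 0.57 (adjusted p = 0.0269). In deposited TPM, Srebf1 was at 26.6 ± 1.94 and 30.5 ± 0.769 in the unstretched groups, against 44.5 ± 4.03 and 90.9 ± 17.1 CPM. Sc5d stayed lower in experiment 2 in TPM, at 13.6 ± 6.94 against 38.1 ± 3.01 in experiment 1. So did Stard4 (5.92 ± 2.37 against 18.5 ± 3.46), Msmo1 (35.7 ± 10.6 against 76.0 ± 10.4) and Hsd17b7 (6.10 ± 2.46 against 13.0 ± 1.86). For these genes TPM did not follow the GC correction. TPM lacks the TMM scaling of CPM, however, and the measures differed in direction for some members. Lss was at 47.6 ± 4.65 CPM in experiment 1 and 63.8 ± 8.14 CPM in experiment 2, but at 24.8 ± 2.35 and 20.2 ± 2.15 TPM. Nsdhl was at 34.0 ± 4.23 and 40.3 ± 3.02 CPM, but at 32.8 ± 3.85 and 25.8 ± 3.22 TPM. TPM therefore cannot decide whether the GC correction was right. The part of GC content in these differences was not tested beyond this correction, and experiment and library handling cannot be told apart.

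**Figure D5:**
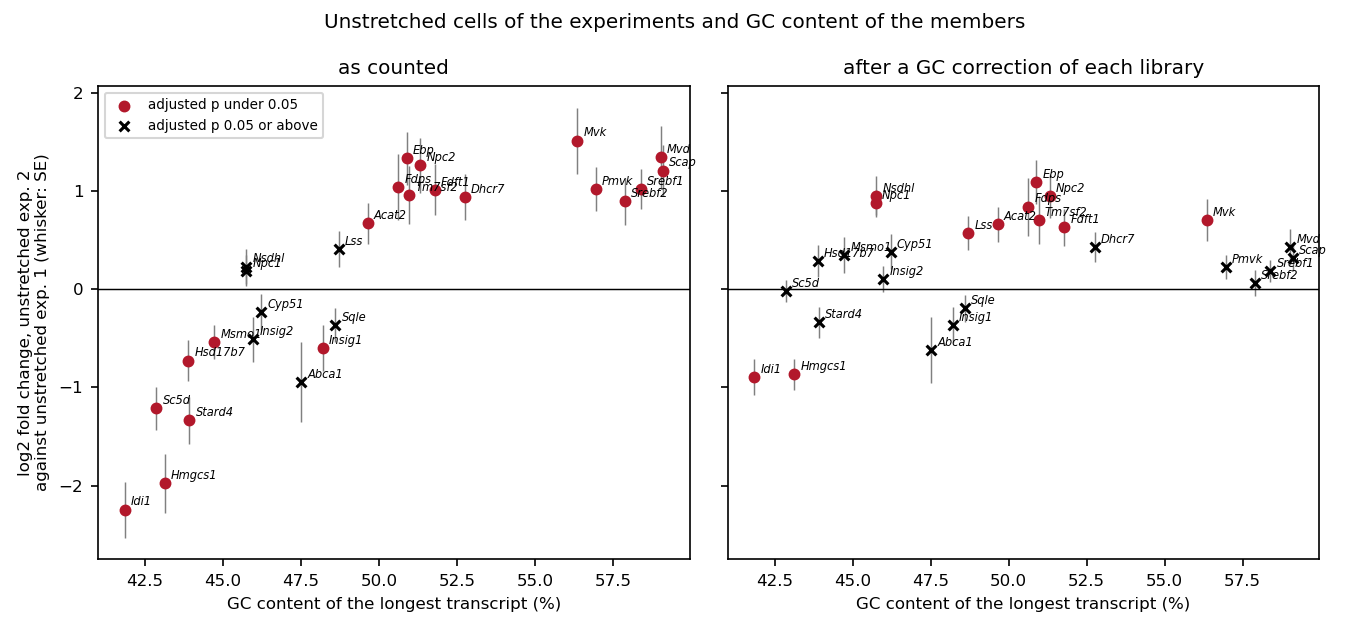
Log2 fold change between the unstretched groups (experiment 2 against experiment 1, whisker SE) against GC content of the longest transcript for 27 members, as counted (left) and after the GC correction (right); filled dots passed at an adjusted p under 0.05 and crosses did not. The values climb with GC content on the left, and on the right Hmgcs1 and Idi1 remain the lowest.

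Transcript usage of the members was also compared, since splicing was the study's question. The test was limma on the log2 ratio of each transcript's TPM to that of the gene's other transcripts. Under low stretch 0 of 54 transcripts of 21 members passed, where 0.018% of all transcripts tested did. An unadjusted p under 0.05 was found for 4 of the 54 and for 2775 of all 27822. Under high stretch 0 of 44 transcripts of 18 members passed, as for 0% of all. There 3 of the 44 had an unadjusted p under 0.05, as did 1902 of all 23498. The main Srebf1 transcript, Srebf1-201, made up 69.3% ± 1.99 of the gene's TPM in unstretched cells of experiment 1 and 72.0% ± 5.01 under low stretch (adjusted p = 0.776, limma, n = 3 and 6). In experiment 2 it made up 83.4% ± 4.53 unstretched and 77.8% ± 4.77 under high stretch (adjusted p = 0.725, limma). The processed transcript Srebf1-210 was at 13.4% ± 1.42 and 13.9% ± 4.51 in experiment 1, and in experiment 2 at 3.79% ± 4.25 unstretched, listed at 0 in at least 1 library, and 10.7% ± 4.65 under high stretch (adjusted p = 0.691, limma). Of Insig1, the coding transcript Insig1-201 was at 91.4% ± 0.984 unstretched and 90.4% ± 1.86 under low stretch (adjusted p = 0.815, limma), the rest being the retained-intron form Insig1-202. In experiment 2 no Insig1 transcript was tested.

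The genes around the pathway were read as lists. None of 12 fatty acid, 6 SREBP processing, 13 tested sterol handling or 12 isoprenoid genes passed under either stretch by edgeR without a block. In that order, 3, 0, 5 and 2 had an unadjusted p under 0.05 under low stretch, as did 5104 of all 21672 genes. Under high stretch 2, 0, 2 and 0 did, as did 2705 of all 18524 genes. DESeq2 called 5 list genes under low stretch (Acly, Soat1 and Icmt higher, Lpin1 and Lrp1 lower), where it called 11.7% of all genes. Under high stretch it called 0 list genes and 5.9% of all genes. The medians under low stretch were -0.04, 0.03, -0.01 and 0.09 on the log2 scale, and under high stretch 0.22, -0.05, -0.09 and -0.02, against 0.01 and -0.02 for all genes. With the run block under low stretch, 1 fatty acid gene passed higher and 2 lower, 3 handling genes higher and 3 lower, 2 isoprenoid genes higher and 0 processing genes, in a fit that called 28.2% of all genes. Neither these counts nor those of DESeq2 or of unadjusted p are read as a result about the lists. Soat1, which esterifies cholesterol for storage, was at 50.8 ± 4.37 CPM unstretched and 68.6 ± 8.82 CPM under low stretch, a log2 fold change of 0.41 (SE 0.11, adjusted p = 0.0611, edgeR; with the run block 0.40, adjusted p = 0.000755). In experiment 2 it was at 36.7 ± 10.2 and 63.9 ± 12.1 CPM, a change of 0.79 (SE 0.24, adjusted p = 0.148; with the run block 0.81, adjusted p = 0.0184). Groups did not overlap in either experiment. Acly, which supplies the acetyl-CoA that both fatty acid and sterol synthesis start from, was at 223 ± 21.1 CPM unstretched and 279.7 ± 23.7 CPM under low stretch (0.30, SE 0.09, adjusted p = 0.0915; with the run block 0.30, adjusted p = 0.00270).

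Some marker genes of other cell types, and of podocytes, moved with stretch beside these values. Csf1r, a macrophage marker, fell by 1.51 on the log2 scale under low stretch (adjusted p = 0.00739, edgeR) and by 2.02 under high stretch (adjusted p = 0.00808), while the defining macrophage markers Adgre1, Ptprc and Itgam were under 1 CPM in every library. The 5 macrophage markers summed to 23.4 to 25.9 CPM unstretched and 6.65 to 13.5 CPM under low stretch. In experiment 2 they summed to 24.3 to 25.6 and 6.03 to 9.67 CPM. Cd68 went the other way under high stretch, at 1.62 to 2.12 CPM against 0.738 to 1.22 CPM unstretched, without overlap. In experiment 1 its groups overlapped, at 0.907 to 1.16 CPM stretched and 1.10 to 1.22 CPM unstretched. The 5 tubular markers summed to 916 to 1076 CPM unstretched and 480 to 754 CPM under low stretch. Nearly all of this was Lrp2, which fell by 0.65 on the log2 scale (adjusted p = 0.0227, edgeR), and the other 4, Slc34a1, Umod, Aqp2 and Slc12a1, were under 1 CPM in every library. In experiment 2 the tubular sums overlapped, at 308 to 681 CPM unstretched and 244 to 434 CPM under high stretch. The 5 mesangial markers summed to 87.0 to 104 CPM unstretched and 57.2 to 79.2 CPM under low stretch, and to 126 to 162 and 104 to 125 CPM in experiment 2. Of these, Pdgfrb fell by 0.56 under low stretch (adjusted p = 0.0199, edgeR), while Itga8 and Ren1 were under 1 CPM in every library. Gata3 was higher under high stretch, at 9.77 to 11.8 CPM against 7.30 to 8.71 CPM unstretched, and its groups overlapped in experiment 1. The 14 podocyte markers summed to 1568 to 1718 CPM unstretched and 1741 to 2072 CPM under low stretch. In experiment 2 their sums overlapped, at 2176 to 2918 CPM unstretched and 2810 to 3377 CPM under high stretch. Single podocyte markers went both ways: Nes was higher and Wt1 lower under stretch, without overlap of the groups in either experiment. The part of all these markers in the members' values was not tested.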

How the data were processed

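Poly(A) RNA of 15 SVI samples was sequenced as stranded paired-end libraries, per the labels' protocols. The authors deposited raw gene counts and transcript TPM. The submitters' processing notes name STAR 2.7.5c, featureCounts, Subread 2.0.0, DESeq2 1.38.3, Salmon 1.9.0 and mm39, with no role or order; the annotation and the strand setting of the counting are not given in the sources used here, so overlapping genes may share counts. Symbols, transcript links, overlaps, length and GC content came from the GENCODE annotation of the gene identifiers; identifiers without a symbol took at most 0.231% of a library's counts.

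Samples were grouped by title. The test for counts was edgeR's quasi-likelihood F test (version 4.0.16, under R 4.3.3; TMM scaling, filterByExpr), fitted over all genes with Benjamini-Hochberg adjustment at 0.05. Standard errors were taken from the fold change and its F value, and CPM from TMM-scaled library sizes. At these depths each tested member had at least 319 counts in every library, and precision was limited by the spread between replicates. Transcript usage was tested with limma 3.58.1 (trend) on log2 ratios with a pseudocount of 0.1 TPM, for genes of at least 1 TPM and mean fractions from 0.05 to 0.95. These steps were tested on simulated data.

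All 28 members are reported, with library values always for Hmgcs1, Sqle, Insig1, Srebf1, Srebf2 and Abca1; of other lists at most 2 genes are named, by lowest p. Single values of some marker genes are not reported here. The members and lists were chosen with earlier results of these data known. Replicate numbers did not pair the samples of experiment 1 (correlations of deviations from group means between -0.45 and 0.38 for 3 pairs), whereas samples of a position run deviated together (0.34 to 0.58 in 6 of 6 pairs); in experiment 2, where number and run are the same, the 3 correlations lay between -0.26 and 0.60. Alternatives were DESeq2 1.42.0, RLE size factors, other filters and pseudocounts, all samples in one fit, both blocks and each sample left out; GC corrections (lowess span 0.3) and a fit of replicates 1 to 3 were added after the data were seen.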

Additional observations from a re-analysis of the deposited data

Results flagged for a closer look

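In the low-stretch group, the only group with enough samples for this test of 1 outlying library, 2 of 27 members had a library that stood apart from the other 5; chance gives about 1 in 20. Hsd17b7, a sterol-step reductase, was at 26.7 CPM in replicate 4, above the other 5 libraries at 18.2 to 21.3 CPM. Npc1 was at 63.1 CPM in replicate 3, below the other 5 at 69.8 to 73.5 CPM.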

How the results depend on the processing

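The number of members called was recomputed under each alternative. For low stretch it was 0 throughout except with the position run block, where it was 4 (Hmgcs1, Pmvk and Tm7sf2 lower, Npc1 higher), and with that block and the GC correction, where it was 5 (also Npc2 higher). With the replicate block, which keeps only replicates 1 to 3, it was 0, as it was for those samples without a block. For high stretch it was 0 except for 1 (Abca1, lower) with DESeq2, with the replicate block, which is there the position run block, and 2 (Abca1 lower, Msmo1 higher) with that block and the GC correction. Leaving out each sample in turn gave 0 for low stretch, high stretch and their difference, and no alternative called a member for the difference or a member transcript. For the unstretched groups the 20 calls became 18 to 22 with DESeq2, RLE size factors, other filters or the replicate block, 14 to 24 with a sample left out, and 12 with the GC correction, under which Msmo1 turned to 0.35 (adjusted p = 0.141, edgeR) and Hsd17b7 to 0.29 (adjusted p = 0.180). Nsdhl and Npc1 were called between the unstretched groups only with that correction. Where a call changed, the cause was not tested. With 3 samples a group, the intervals of experiment 2 reach past 2-fold for 7 members and lie within 1.5-fold for 1 of 27. Where a fit left 2 samples in a group, the spread was pooled with the other group.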
